A study of Homo sapiens with 6 samples.

Results

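The 39 genes described here mark the mesenchymal state of neuroblastoma. They were taken as a list of symbols, and each was read from the probe sets annotated to that symbol alone, represented by its brightest probe set by mean over the 6 arrays. All 39 had at least 1 such probe set, out of 18244 genes with one in the table, and together they had 142. Neuroblastoma cells occur in a noradrenergic state, which resembles sympathetic neuron precursors and runs on factors such as *PHOX2A*, *GATA3* and *HAND2*, and in a mesenchymal state, which is flat, adherent and motile and uses factors such as *PRRX1*, the FOSL proteins and the Hippo pathway effectors *YAP1* and *WWTR1*. Cells can pass from one state to the other. In the mesenchymal state they lay down matrix and carry fibroblast-like intermediate filaments and surface proteins.

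SH-SY5Y is an established subclone of a human neuroblastoma line, and it is usually placed in the noradrenergic state. The cells were transfected 24 hours after seeding with anti-miR-137, which inhibits that microRNA (3 arrays), or with a negative control anti-miR (3 arrays), each given in the labels as 15 pM, and total RNA was taken 72 hours after transfection. Both groups are the same line and both received an anti-miR, so the series holds no untransfected cells. The arrays carry replicate numbers 1 to 3 in each group, and the labels do not say whether equal numbers share a culture or a day. For treatment the p-values rest on 3 arrays a group, and for replicate number on 2 arrays a number, 1 of each treatment. Part of the scatter behind both may be technical.

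The sequence that the inhibitor is directed at is shown first, because it defines the treatment. It is the mature miR-137 of RefSeq (build GRCh38.p14, chr1:98046091-98046113, minus strand), with bases 2 to 8, the seed that pairs with target mRNAs, in capitals.
hsa-miR-137-3p: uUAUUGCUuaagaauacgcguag

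Of the 39 genes, 28 were above background and 11 below it. The arrays came with no detection calls, so a log2 level of 5.69, the 40th percentile over probe set means, served as the background level, and 69.3% of all genes reached it. As a second view, the 360 probe sets of 334 olfactory receptor genes, which most tissues do not express, had a median of 4.42 with 90% of them lying between 3.62 and 6.06. All 11 genes below background stayed under 5.69 in every array, and 26 of the 28 above it stayed over it in every array. The exceptions were *CCN1* and *SIX4*, whose means of 5.82 and 5.84 lay between that level and 6.06. Probe sets differ in how strongly they bind, so the levels are read against background and not ranked between genes. When probe sets with an identifier ending in s_at, x_at or a_at were left out, 17 members had one left and 9 were above background. That removed the brightest probe sets of *VIM*, *YAP1*, *WWTR1* and *IL13RA1*, all ending in a_at.

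Of the 8 genes taken as defining the mesenchymal state, *CD44* and *PRRX1* were below background. The others were above it: *VIM* (mean 13.5), *FN1* (8.88), *WWTR1* (7.84), *YAP1* (7.64), *SNAI2* (7.32) and *FOSL2* (6.44). *CD44*, the hyaluronan receptor widely used to mark mesenchymal cells, measured 4.82, 4.65 and 4.74 in anti-miR-137 replicates 1 to 3 and 4.64, 4.90 and 4.67 in control replicates 1 to 3. The groups overlapped, and all 10 of its probe sets were below background. *PRRX1*, a homeobox factor that can drive cells into the mesenchymal state, measured 5.03, 5.22 and 4.82 in anti-miR-137 arrays and 5.26, 5.07 and 5.12 in control arrays. The homeobox factors *MEOX1* (mean 4.71) and *MEOX2* (3.46), the osteoblast regulator *RUNX2* (4.20) and the receptor tyrosine kinase *AXL* (4.96) were also below. So were both caveolin genes, *CAV1* (4.68) and *CAV2* (3.65), the phospholipid-binding *ANXA1* (4.29), the secreted YAP target *CCN2* (3.84) and the collagen chain *COL1A2* (4.99). No probe set of the 11 genes below background, 41 in all, reached that level.

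Other mesenchymal genes stood far above background in this line. *VIM*, the intermediate filament vimentin, had a mean of 13.5 against the background level of 5.69. *LGALS1* (galectin-1, 13.3), *TWIST1*, a basic helix-loop-helix factor of epithelial-mesenchymal transition and neural crest (12.4), *ANXA2* (annexin A2, 12.2) and the calcium-binding *S100A6* (11.6) also stood clear of it. So did the fibrillar collagen *COL3A1*, which lay between 10.87 and 11.17 in the 6 arrays, and the matrix protein *SPARC* (10.5). The developmental factors *RUNX1* (6.19) and *TBX18* (6.85) and the calcium-binding *S100A11* (8.67) were above background; none of these 3 passed a test below. By role, 3 of 3 cytoskeletal genes, 8 of 10 matrix genes, 10 of 14 transcription factors and cofactors, 2 of 4 surface genes, 5 of 6 genes of the S100, annexin and galectin group and 0 of 2 caveolins were above background. *COL1A1* (6.18) was close to it, and its partner chain in type I collagen, *COL1A2*, was below.

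Noradrenergic markers were read from the same arrays. Of 28 noradrenergic markers, 26 had a probe set of 1 symbol and 25 of these were above background, with *INSM1* (5.05) below. Of all genes, 69.3% were above it. *PHOX2A* had a mean of 10.6, *GATA3* of 11.3, *HAND2* of 14.0 and *DBH*, the enzyme that makes noradrenaline, of 12.7. Of 12 glial and Schwann markers, 8 had a probe set and 3 were above background, *SOX10* (6.84), *S100B* (7.86) and *GFAP* (7.41). Of 42 measured genes from a list of other mesenchymal regulators and matrix genes, 36 were above background. The share of the 39 members above background, 71.8%, was near that of all genes. Most markers of both states were thus above background. The counts were not tested against each other, so no state was read from them.

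**Figure D1:**
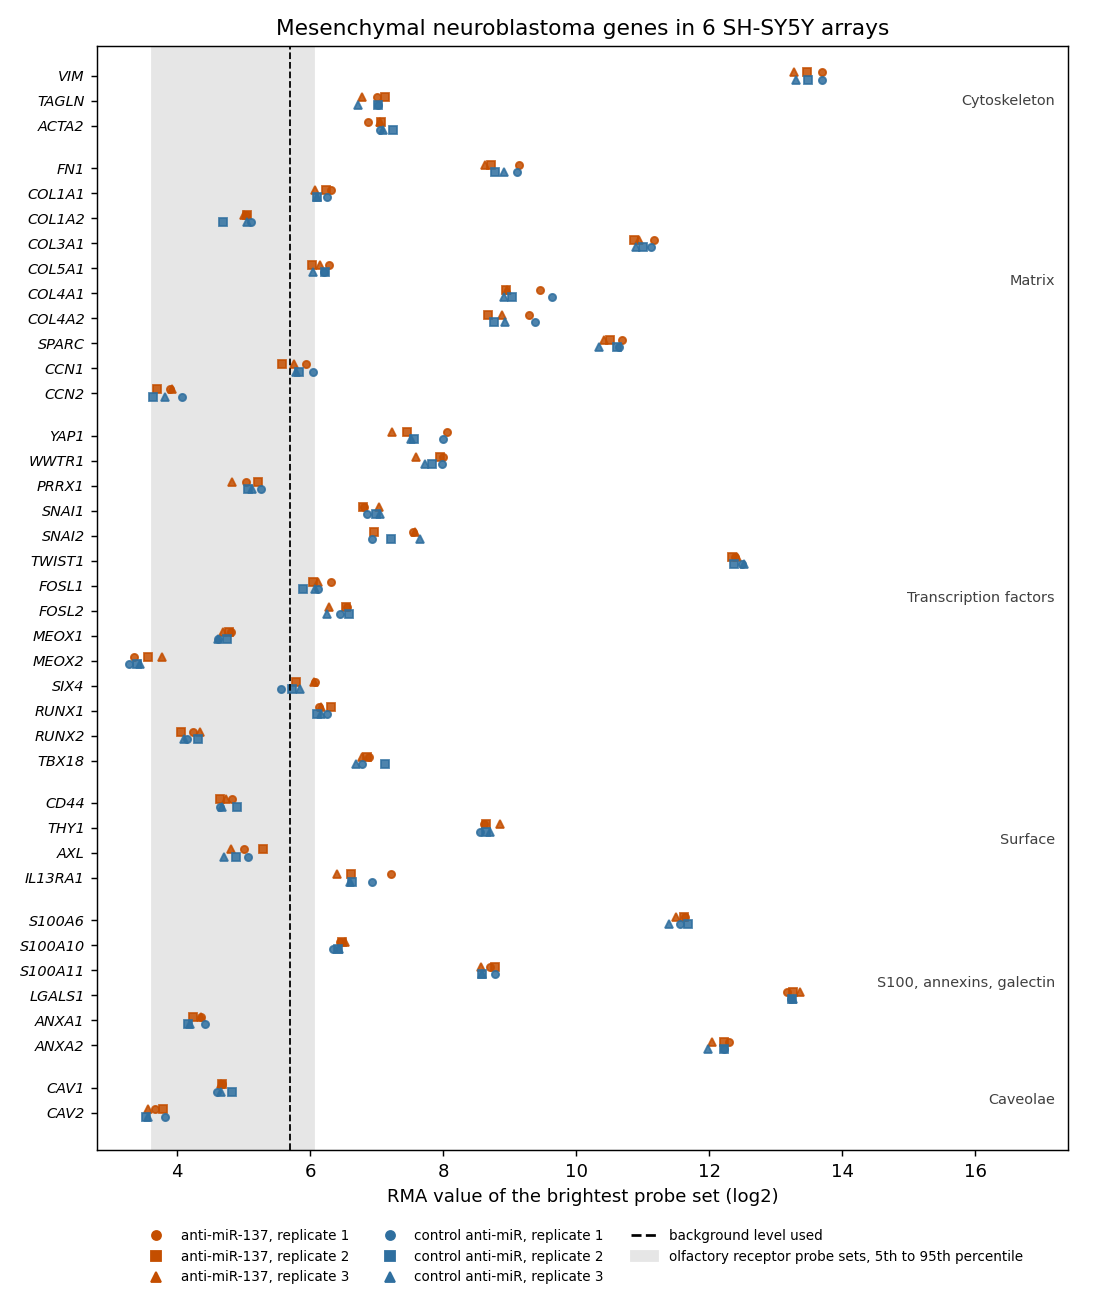
RMA values (log2, horizontal axis) of the brightest probe set of each of the 39 genes, grouped by role, with 1 point per array; orange marks anti-miR-137, blue control anti-miR, and the marker shape the replicate number. The dashed line is the background level of 5.69 and the grey band holds the central 90% of olfactory receptor probe sets; 11 genes, *CD44*, *PRRX1* and both caveolins among them, lie left of the line in every array.

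The first comparison asked whether inhibiting miR-137 changed these genes, and none of the 28 tested passed. Of 12639 genes tested in limma, 0 (0%) had an adjusted p under 0.05 between anti-miR-137 and control cells, and 0 of the 28 members did; each had an adjusted p of 1.00. At an unadjusted p under 0.05 there was 1 member, against 2.65% of all genes. Higher values in anti-miR-137 cells were found for 15 members and lower values for 13, with a median log2 fold change of 0.0071 against 0.0033 over all genes tested. The fold changes of members ran from -0.14 to 0.26, and the 95% confidence interval of 27 of the 28 included 0. For 23 of the 28 the interval lay within 0.5 log2 units of 0, against 95.5% of all genes. The median half-width of the interval was 0.24 for members and 0.19 for all genes. Treatment was the only term in this fit, so differences between replicate numbers stay in the scatter behind these intervals.

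*SIX4*, a homeobox factor listed among mesenchymal regulators, was the member with the smallest unadjusted p. It measured 6.07, 5.79 and 6.05 in anti-miR-137 arrays and 5.56, 5.72 and 5.84 in control arrays. The anti-miR-137 array was higher within each replicate number, but the groups overlapped. The means were 5.97 ± 0.16 in anti-miR-137 and 5.71 ± 0.14 in control cells (SD, n = 3 each). The difference was 0.26 log2 units, its standard error 0.10 and its adjusted p 1.00 in limma. The mean of this gene was near background and it has 1 probe set, so no other probe set could be compared.

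*S100A10*, the light chain partner of annexin A2, was the 1 member whose groups did not overlap, which held for 7.36% of all genes. It measured 6.44, 6.48 and 6.52 in anti-miR-137 arrays and 6.35, 6.41 and 6.43 in control arrays. Its log2 fold change was 0.08 (95% confidence interval -0.05 to 0.22), and the other probe set gave 0.08. Its partner *ANXA2* had 0.05 (-0.18 to 0.28).

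*ACTA2*, smooth muscle actin, measured 6.88, 7.06 and 7.05 in anti-miR-137 arrays and 7.05, 7.24 and 7.10 in control arrays. It was lower within each number, by -0.14 on average (95% confidence interval -0.32 to 0.05). *FOSL1*, an AP-1 subunit of the mesenchymal state, measured 6.32, 6.05 and 6.12 in anti-miR-137 arrays and 6.12, 5.89 and 6.07 in control arrays, a log2 fold change of 0.14 (-0.08 to 0.35). With 1 array left out the value ran from 0.06 (without anti-miR-137 replicate 1) to 0.19, and with RNA integrity as a covariate it was 0.0038. *CCN1*, a secreted matricellular protein and YAP target, had -0.13 (-0.38 to 0.13), with a range from -0.22 to -0.04 (without anti-miR-137 replicate 2) when 1 array was left out and -0.25 with that covariate. For *ACTA2* the range was -0.17 to -0.08 (without anti-miR-137 replicate 1), and the covariate gave -0.03. The groups overlapped for all of these.

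*SNAI1*, a zinc finger repressor of epithelial genes, measured 6.81, 6.79 and 7.03 in anti-miR-137 arrays and 6.85, 6.99 and 7.05 in control arrays, a difference of -0.08 (-0.29 to 0.12). *TWIST1* measured 12.39, 12.34 and 12.42 in anti-miR-137 arrays and 12.49, 12.37 and 12.52 in control arrays, a difference of -0.07 (-0.23 to 0.08). *THY1*, a surface glycoprotein of fibroblasts and neurons, measured 8.61, 8.65 and 8.85 in anti-miR-137 arrays and 8.55, 8.65 and 8.70 in control arrays, a difference of 0.07 (-0.12 to 0.27). The groups overlapped for all 3. With 1 array left out, *SNAI1* ran from -0.16 (without anti-miR-137 replicate 3) to -0.04 (without control replicate 3), *TWIST1* from -0.12 (without control replicate 2) to -0.04 (without control replicate 3), and *THY1* from 2.1e-06 (without anti-miR-137 replicate 3) to 0.12 (without anti-miR-137 replicate 1). The other probe set of *THY1* above background gave -0.22, and the mean of both turned the direction. Of the 28 members, 5 had higher and 6 lower values in the anti-miR-137 array of all 3 numbers, 11 in all, and 28.3% of all genes had such a uniform order. The 5 higher ones were *FOSL1*, *SIX4*, *THY1*, *S100A10* and *ANXA2*, and the 6 lower ones *VIM*, *ACTA2*, *COL4A2*, *CCN1*, *SNAI1* and *TWIST1*. None of them passed the test, as given above.

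**Figure D2:**
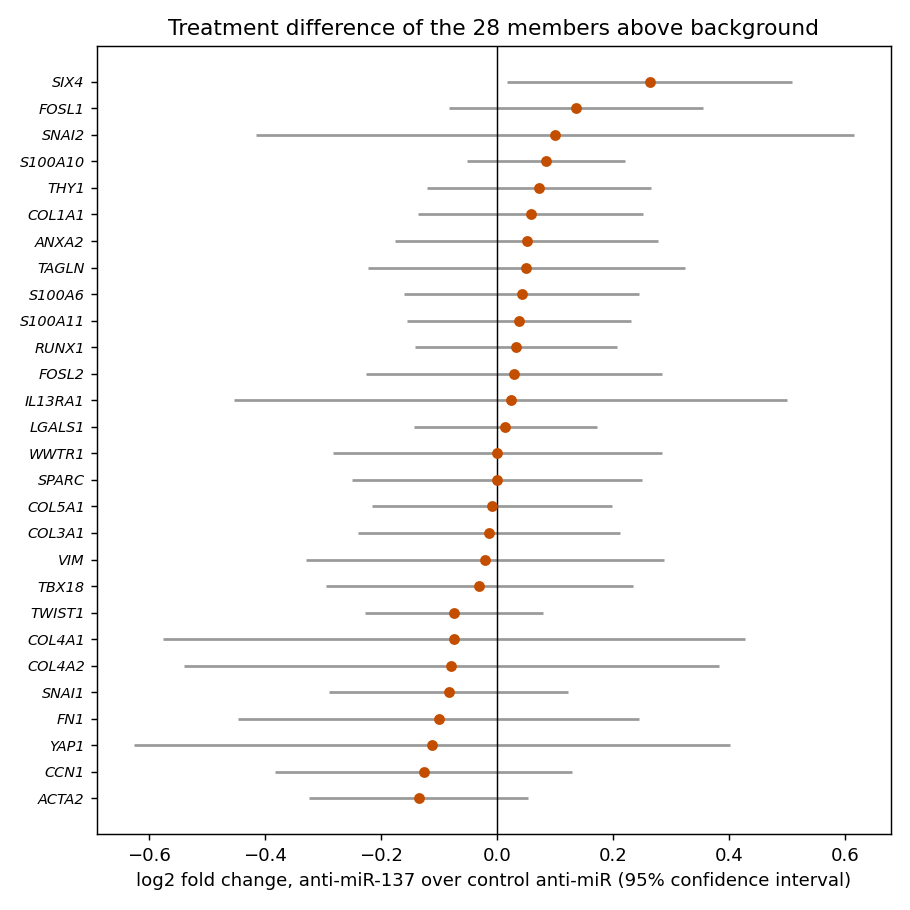
Log2 fold change, anti-miR-137 over control anti-miR, of the 28 members above background (points), with 95% confidence intervals from limma (bars; 3 arrays per group). The fold changes run from -0.14 to 0.26, and the interval leaves out 0 for *SIX4* alone.

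The second comparison was between replicate numbers, with 2 arrays a number and treatment kept in the model, and here members differed. *COL4A1*, *COL4A2* and *YAP1*, 3 of the 28, had an adjusted p under 0.05 in limma's F test over the 3 numbers, and 320 of all 12639 genes (2.53%) did. At an unadjusted p under 0.05 there were 14 of 28 members and 23.5% of all genes. In the single contrast of replicate 3 with replicate 1, 5 of 28 members were lower at an adjusted p under 0.05 (3.84% of all genes) and 0 were higher (4.39% of all genes): *COL4A1*, *COL4A2*, *YAP1*, *VIM* and *IL13RA1*. Of the higher ones, 2 had an unadjusted p under 0.05 (14.1% of all genes). In the contrast of replicate 2 with replicate 1, 0 members passed in limma (0.0316% of all genes) and 10 had an unadjusted p under 0.05 (13.2%). In that of replicate 3 with replicate 2, 0 passed (0.00791%) and 9 had an unadjusted p under 0.05 (16%). What the numbers stand for is not in the labels, so any cause of these differences was not tested. The calls rest on each of the 4 arrays of numbers 1 and 3: without any single one of them 0 members passed either test, 8 to 12 had an unadjusted p under 0.05 in the F test, and 0 to 3 of all 12639 genes passed the contrast of replicate 3 with replicate 1. With no filter on dim probe sets, 0 of 39 members passed the F test and 1, *COL4A1*, the contrast.

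The pair of type IV collagen chains had the smallest F test p of all members. They are the network-forming collagens of basement membrane and assemble with each other. *COL4A1* measured 9.46, 8.95 and 8.95 in anti-miR-137 replicates 1, 2 and 3 and 9.64, 9.03 and 8.92 in control replicates 1, 2 and 3. Both arrays of replicate 1 were higher than all 4 others, whichever the treatment. Replicate 3 minus replicate 1 was -0.62 log2 units with a standard error of 0.073 (adjusted p = 0.016, limma), and the other probe set above background gave -0.51. *COL4A2* measured 9.29, 8.68 and 8.88 in anti-miR-137 arrays and 9.38, 8.76 and 8.94 in control arrays. The order was the same in both treatments, replicate 1 highest and replicate 2 lowest. Its difference between replicates 3 and 1 was -0.43 with a standard error of 0.059 (adjusted p = 0.020, limma), and its 2 other probe sets gave -0.30 and -0.12, so that the average over the 3 was -0.28.

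These genes lie head to head on chromosome 13, and the RefSeq windows of 300 bases around their starts overlap by 226 bases (GRCh38.p14, chr13:110307108-110307333, plus strand). The stretch is shown because both genes start in it and moved together. Capitals mark the 126 bases between the start of *COL4A1*, which is transcribed to the left, and that of *COL4A2*, transcribed to the right.
COL4A1-COL4A2 shared window: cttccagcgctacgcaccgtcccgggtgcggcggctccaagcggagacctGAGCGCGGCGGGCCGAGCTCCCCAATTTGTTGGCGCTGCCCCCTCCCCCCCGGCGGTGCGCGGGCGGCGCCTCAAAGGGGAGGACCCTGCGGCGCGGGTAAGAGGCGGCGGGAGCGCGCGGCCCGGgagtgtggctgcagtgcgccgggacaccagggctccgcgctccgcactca
Between the starts, CCAAT occurs 1 time and GGGCGG, the letters of a GC box, 1 time, counting both strands. Of all 35116 windows of this length, 34.6% hold CCAAT and 45.0% hold GGGCGG, so both are common.

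*YAP1*, the transcriptional coactivator held back by the Hippo kinases, showed the greatest difference among members between replicates 3 and 1. It measured 8.05, 7.45 and 7.23 in anti-miR-137 arrays and 8.0, 7.56 and 7.52 in control arrays. Again both arrays of replicate 1 lay above the others. The difference was -0.65 with a standard error of 0.093 (adjusted p = 0.021, limma); it was -0.82 within anti-miR-137 and -0.47 within control cells. The 3 other probe sets above background gave -0.58 to -0.42. Its paralog *WWTR1*, which encodes TAZ, measured 8.0, 7.94 and 7.59 in anti-miR-137 arrays and 7.98, 7.83 and 7.72 in control arrays. It had -0.33 with a standard error of 0.078, which did not pass (adjusted p = 0.059, limma). It passed with a filter at the 60th percentile (adjusted p = 0.0226).

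YAP and TAZ act on DNA through TEAD factors, which bind GGAATG. The window around the start of *YAP1* (GRCh38.p14, chr11:102110197-102110496, plus strand, from 250 bases before the start to 50 after) holds these letters 1 time, in capitals below, and is shown because *YAP1* moved together with other members.
YAP1 promoter: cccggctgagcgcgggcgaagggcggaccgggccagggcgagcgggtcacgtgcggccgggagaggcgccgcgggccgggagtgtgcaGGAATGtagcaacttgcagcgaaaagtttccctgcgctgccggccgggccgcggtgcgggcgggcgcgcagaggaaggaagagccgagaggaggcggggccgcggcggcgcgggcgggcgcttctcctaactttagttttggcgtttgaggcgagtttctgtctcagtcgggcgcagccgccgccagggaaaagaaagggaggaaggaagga
Of the 27 members with a RefSeq window, 7 hold GGAATG on either strand (*ACTA2*, *AXL*, *CCN2*, *RUNX1*, *RUNX2*, *SPARC* and *YAP1*), against 14.0% of all windows. The AP-1 letters TGANTCA are in 3 of the 27 (*ANXA2*, *FOSL2* and *RUNX2*) and in 7.71% of all windows. A member was counted if any of its windows held the letters, while the percentages are of single windows. A gene with several windows has more room for a match, so counts and percentages are not a like comparison. These matches describe letters in a short window and name no site.

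*VIM* measured 13.69, 13.47 and 13.28 in anti-miR-137 arrays and 13.70, 13.49 and 13.31 in control arrays. Anti-miR-137 minus control was -0.012, -0.024 and -0.027 within the numbers, and each number stood apart from the others. The difference between replicates 3 and 1 was -0.40 with a standard error of 0.059 (adjusted p = 0.022, limma), and the other probe set gave -0.39. *IL13RA1*, a subunit of the interleukin 13 receptor, measured 7.22, 6.62 and 6.40 in anti-miR-137 arrays and 6.93, 6.63 and 6.61 in control arrays. Its difference was -0.57 with a standard error of 0.12 (adjusted p = 0.044, limma), and without anti-miR-137 replicate 1 the difference was -0.38. The call ended with quantile normalization, median centring or cyclic loess on top of the deposited values (adjusted p = 0.0514, 0.0504 and 0.0519 in limma). None of its 3 other probe sets was above background.

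Every matrix gene above background, 8 of 8, had lower values in replicate 3 than in replicate 1, and 53.0% of all genes tested did. The differences ran from -0.62 to -0.15. In all 8 both replicate 3 arrays lay below both replicate 1 arrays, an order that 31.9% of all genes had. *FN1*, fibronectin, measured 9.15, 8.72 and 8.63 in anti-miR-137 arrays and 9.11, 8.77 and 8.91 in control arrays. Its difference was -0.36 with a standard error of 0.089 (adjusted p = 0.068, limma), and its 5 other probe sets above background gave -0.23 to 0.09, 4 of them lower in replicate 3. The average over its probe sets was -0.16, and without anti-miR-137 replicate 3 the difference was -0.22. *SPARC* measured 10.69, 10.51 and 10.42 in anti-miR-137 arrays and 10.65, 10.62 and 10.35 in control arrays, a difference of -0.29 (adjusted p = 0.063, limma), with 6 of 7 other probe sets lower in replicate 3. With a filter at the 60th percentile *FN1* and *SPARC* passed (adjusted p = 0.0282 and 0.0259, limma), and *SPARC* also with quantile normalization on top (adjusted p = 0.0425). *CCN1* measured 5.94, 5.58 and 5.76 in anti-miR-137 arrays and 6.04, 5.83 and 5.79 in control arrays, a difference of -0.22 (adjusted p = 0.13, limma) that was -0.14 without control replicate 3. The fibrillar chains *COL3A1* (-0.22), *COL1A1* (-0.20) and *COL5A1* (-0.15) did not pass. The 2 other probe sets of *COL5A1* above background gave -0.74 and -0.41, and the gene passed with its probe sets averaged. It was also the 1 member of 9 to pass this contrast without probe sets ending in s_at, x_at or a_at.

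Among the remaining members with a small F test p, *TAGLN*, the actin-binding transgelin, measured 7.01, 7.12 and 6.79 in anti-miR-137 arrays and 7.02, 7.02 and 6.72 in control arrays. Replicate 3 was lowest in both treatments, by -0.26 against replicate 1, but its other probe set above background gave 0.10 and the average of both -0.08. *FOSL2*, an AP-1 subunit of the mesenchymal circuit, measured 6.56, 6.54 and 6.28 in anti-miR-137 arrays and 6.45, 6.58 and 6.26 in control arrays, a difference of -0.23. Its other probe set above background gave -0.50, and the average of both, -0.37, passed (adjusted p = 0.0345, limma). *ANXA2* measured 12.30, 12.23 and 12.05 in anti-miR-137 arrays and 12.22, 12.22 and 11.98 in control arrays, a difference of -0.25, and the average over its probe sets was -0.15. By their brightest probe sets none of these passed (adjusted p = 0.063, 0.090 and 0.066 in limma). *ANXA2* passed with a filter at the 60th percentile (adjusted p = 0.0277) and *TAGLN* with array weights (adjusted p = 0.045).

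Not all members had lower values in replicate 3. *SNAI1* (0.21), *THY1* (0.19), *LGALS1* (0.11) and *SNAI2* (0.38) had both replicate 3 arrays above the other 4 arrays, as did 16.8% of all genes. These log2 differences from replicate 1 did not pass. *SNAI2*, which encodes the repressor Slug, measured 7.55, 6.96 and 7.58 in anti-miR-137 arrays and 6.93, 7.22 and 7.65 in control arrays. Its difference between replicates 3 and 1 was 0.03 within anti-miR-137 and 0.72 within control cells, and without control replicate 1 it was -0.02. *TWIST1* varied little, with a difference of 0.03.

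Over the 28 members, 20 had lower and 8 higher values in replicate 3 than in replicate 1, with a median log2 difference of -0.18 against -0.012 over all genes tested, of which 53.0% were lower. Without probe sets ending in s_at, x_at or a_at, 9 members were left, 4 of them lower, with a median of 0.029. *COL4A1*, *COL4A2*, *YAP1*, *VIM* and *IL13RA1* were not among the 9. The 4 lower ones, *COL1A1*, *COL5A1*, *FOSL2* and *TBX18*, were also lower by their brightest probe sets. None of the 9 changed direction, so the median differed because other members dropped out. For the 28 members the median was -0.18 within anti-miR-137 arrays (0.00040 over all genes) and -0.18 within control arrays (-0.019 over all genes). Members lower within both treatments were 19 of 28, where 38.6% of all genes were. The arrays of the numbers did not overlap for 18 members lower in replicate 3 (31.9% of all genes) and 4 higher in it (28.9%). Both replicate 1 arrays lay above the other 4 for 11 members (14.9% of all genes). For 23 of the 28 the difference between replicates 3 and 1 was greater in size than the treatment difference, and the same was true of 73.3% of all genes.

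**Figure D3:**
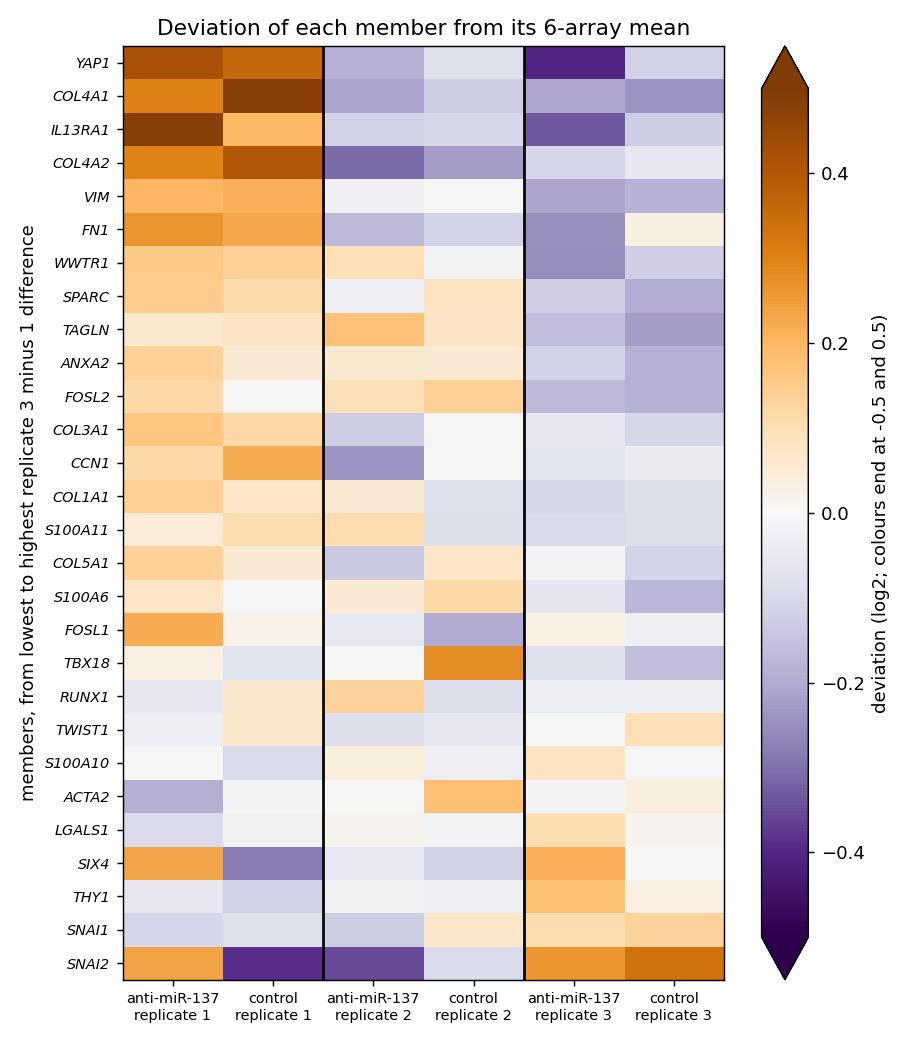
Deviation of each of the 28 members above background from its own 6-array mean (log2; orange above, purple below), with the arrays grouped by replicate number and the genes ordered by their difference between replicates 3 and 1. The columns of replicate 1 are orange and those of replicate 3 purple for most genes from *YAP1* down to *S100A11* in both treatments, and *SNAI1*, *THY1* and *SNAI2* at the bottom run the other way.

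Over all genes the difference between replicates 3 and 1 moved with signal level. In the dimmest 20% of tested genes 68.8% were lower in replicate 3 than in replicate 1, and in the brightest 20% 44.5% were. Of the members, 10 were in the dimmest 20%, 8 of them lower, and 7 in the brightest 20%, 5 of them lower. The part of signal level in the members' differences was not tested. The RNA integrity number was 9.5, 9.7 and 9.7 in anti-miR-137 replicates 1, 2 and 3. It was 9.7, 9.8 and 9.7 in control replicates 1, 2 and 3. The part of RNA integrity in the members' differences between numbers was not tested either.

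The other markers moved as follows. Of the 25 noradrenergic genes, 18 had higher and 7 lower values in replicate 3 than in replicate 1, with a median of 0.042. Of all genes tested, 53.0% were lower, and their median was -0.012. Mean deviations from the 6-array mean are given for anti-miR-137 first and control second. Noradrenergic genes had -0.075 and -0.049 in replicate 1, 0.037 and 0.073 in replicate 2 and 0.0042 and 0.0089 in replicate 3. The 28 mesenchymal members had 0.12 and 0.069 in replicate 1, -0.050 and -0.013 in replicate 2 and -0.067 and -0.063 in replicate 3. The noradrenergic mean was thus highest in replicate 2, and near 0 in replicate 3. At an adjusted p under 0.05 in limma, 2 of the 25 were higher in replicate 3 than in replicate 1, against 4.39% of all genes. They were *ELAVL4*, a neuronal RNA-binding protein (0.40, adjusted p = 0.022, limma), and *SLC18A1*, a vesicular monoamine transporter (0.30, adjusted p = 0.040, limma). *CHGB*, a granin of dense-core vesicles, had -0.27 (adjusted p = 0.052, limma) and *HAND1* 0.19 (adjusted p = 0.11, limma). In bulk RNA, a change in the share of cells of one state and a change in RNA per cell cannot be told apart.

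Of 36 other mesenchymal regulators and matrix genes above background, 28 had lower and 8 higher values in replicate 3. This list, like the others, was chosen with earlier results of these data known, so it is no independent check. Of all genes tested, 53.0% were lower. The median log2 difference of the 36 was -0.20, and 6 were lower at an adjusted p under 0.05 in limma (3.84% of all genes). *TGFBR2*, the type II receptor for TGF-beta, measured 7.66, 6.73 and 6.55 in anti-miR-137 arrays and 7.40, 6.92 and 6.34 in control arrays. Both arrays of replicate 1 lay above all others, and the difference between replicates 3 and 1 was -1.09 with a standard error of 0.12 (adjusted p = 0.016, limma). *FBN1*, the microfibril protein fibrillin-1, had -0.65 (adjusted p = 0.023) and the RNA-binding protein gene *ZFP36L1* -0.47 (adjusted p = 0.017). In the treatment comparison *NOTCH1*, a receptor of cell-cell signalling, had 0.17 log2 units and *ZEB2*, a zinc finger repressor, had -0.23, and no gene of this list passed.

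Of 22 genes of the YAP, TAZ and TEAD pathway above background, 11 had lower and 11 higher values in replicate 3. Of all genes tested, 53.0% were lower. The median of the 22 was 0.026, and 5 were lower at an adjusted p under 0.05 in limma (3.84% of all genes). Among the 5 were *FRMD6*, a FERM domain protein upstream of the Hippo kinases (-0.48, adjusted p = 0.019, limma), *AJUBA*, a LIM protein that binds LATS kinases (-0.41, adjusted p = 0.024), and *STK3*, the Hippo kinase MST2 (-0.36, adjusted p = 0.028). The kinase genes *LATS1* (mean 4.53) and *LATS2* (4.09) and the YAP target *ANKRD1* (3.52) were below background. By treatment, *TEAD3* had 0.15 and the kinase adaptor *MOB1A* 0.08 log2 units, and neither passed.

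**Figure D4:**
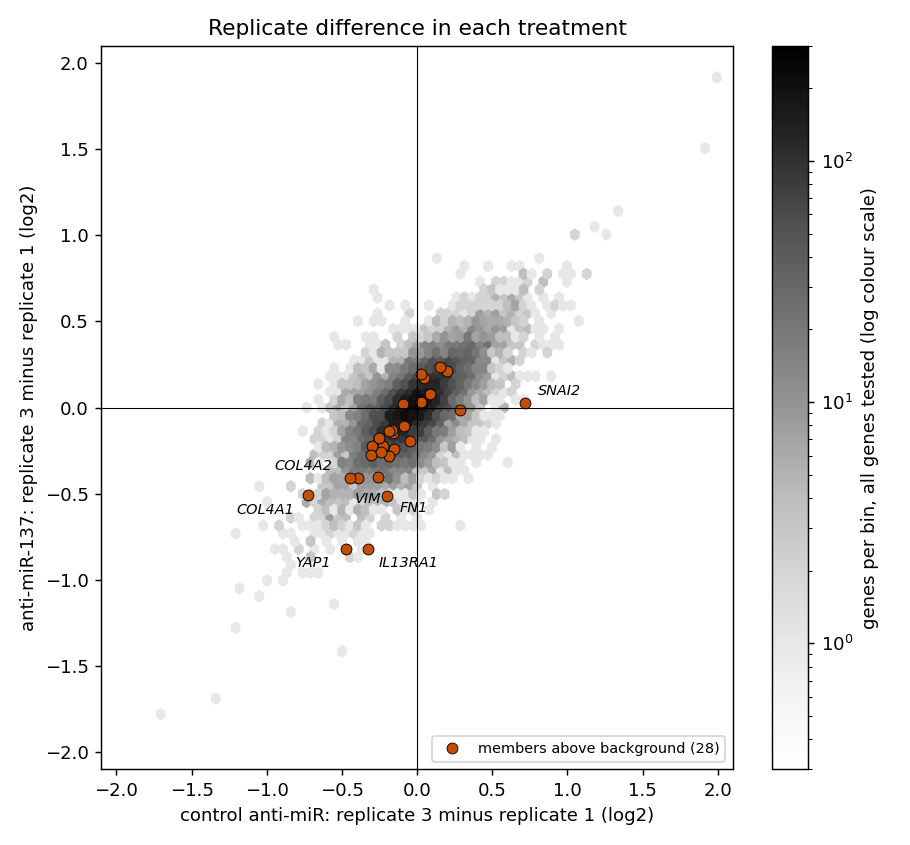
Difference between replicates 3 and 1 (log2) within anti-miR-137 arrays (vertical axis) and within control arrays (horizontal axis); grey bins hold all 12639 genes tested and orange points the 28 members above background. In the lower left quadrant lie 19 members, led by *YAP1*, *IL13RA1* and *COL4A1*, and *SNAI2* lies at 0.03 against 0.72.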

How the data were processed

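Per the submitters' processing notes, the authors processed the arrays with RMA in R 3.0.1, and deposited 1 log2 value for each probe set and array. RMA equalises the arrays' distributions, which would hide a change common to all RNAs. Scanner files were not used here. Of 49495 probe sets, 102 controls were left out, and 45278 of the others had 1 symbol, 1333 several and 2782 none; entrez identifiers of 45208 were found in the RefSeq table of GRCh38.p14, which altered 0 symbols. Array medians lay between 6.39 and 6.43, and the number of arrays limits the precision.

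Genes whose brightest probe set had a mean at or above the 40th percentile were tested (12639) with limma 3.58.1 in R 4.3.3, two-sided, Benjamini-Hochberg over all of them, threshold 0.05. Treatment was fitted as the only term. Replicate number was tested by an F test beside treatment, with contrasts between numbers. The fits were tested on simulated data. Values per array are given for 8 defining genes, the 8 members with the smallest unadjusted p for treatment and the 12 for replicate number. From each comparison list up to 3 genes by p for replicate number and 2 by p for treatment could be named; *INSM1*, *PHOX2A*, *GATA3*, *HAND2*, *DBH*, *SLC18A1*, *LATS1*, *LATS2* and *ANKRD1* were named beside them after their values were seen. The members and lists were chosen with earlier results of these data known. RefSeq windows were found for 27 of 39 members.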

Additional observations from a re-analysis of the deposited data

How the results depend on the processing

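No member passed the treatment test under any of the 17 alternatives run (0 in each), including the replicate block, with which 3 members had an unadjusted p under 0.05 (815 of all genes) against 1 (335) without it. Deviations from the group means correlated at 0.55, 0.073 and 0.65 between arrays sharing number 1, 2 and 3, not over 0.1 in each, so the numbers were not taken as pairs; as a hint from the data, all 6 arrays correlated best with their own number. The median treatment difference of members, 0.0071, ran from -0.052 to 0.058 with 1 array left out. *THY1* turned to -0.075 with the probe sets of a gene above background averaged, and the *SNAI2* difference between replicates 3 and 1 ran from -0.019 (without control anti-miR replicate 1) to 0.77 with 1 array left out. The count of members past the F test over numbers was 3. It was 0 of 39 without the filter (2 genes in all) and 5 of 15 with the filter at the 60th percentile (1099 in all). It was 10 with a variance prior with trend (1797 in all), 2 with averaged probe sets and 4 with array weights (637 in all). Without probe sets ending in s_at, x_at or a_at it was 0 of 9 (98 in all). The 3 called members were not among these 9, so this setting could not keep their calls. Leaving out an array leaves 1 of that number, assumed to vary like the rest. With the probe sets of those endings left out, 17 members had one left and 9 were above background instead of 28. Of the 9, 4 were lower in replicate 3, as they were by their brightest probe sets. Other background levels gave between 22 and 29 members.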
